A study of Mus musculus with 198 samples.

Results

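The Hox genes are the homeobox genes whose names begin with Hoxa, Hoxb, Hoxc or Hoxd, and all 39 genes named in this way were taken from the 56332 features of the count table. They comprise 11 HoxA genes (chromosome 6, 52155590 to 52260880 on the mm10 build, minus strand), 10 HoxB genes (chromosome 11, 96194316 to 96368256, plus strand), 9 HoxC genes (chromosome 15, 102921103 to 103036852, plus strand) and 9 HoxD genes (chromosome 2, 74668310 to 74765142, plus strand). Of these, 12 belong to paralogue groups 1 to 4, 11 to groups 5 to 8 and 16 to groups 9 to 13. Their RNA was measured in whole gonadal fat, subscapular fat, kidney, lung, bone marrow, spleen, skin, heart and liver of 22 C57BL/6 mice, 1 library per tissue and mouse. Of the mice, 10 (5 male, 5 female) were given an antibody against PAPP-A (aPAPPA), a secreted protease of the insulin-like growth factor system, and 12 (6 male, 6 female) were controls, each for 17 weeks. No genetic change is named for either arm, no age is given, and what the controls received is not described beyond the word control.

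Hox genes encode DNA-binding proteins that give cells of the embryo their position along the head-to-tail axis. Within each cluster the genes lie in paralogue order, and those of low number are switched on early and towards the head while those of high number are switched on late and towards the tail, under the control of retinoic acid, Cdx factors and the opposing Trithorax and Polycomb complexes. Adult connective tissue, including the stromal cells of fat, keeps part of this pattern. The urogenital tract uses HoxA and HoxD genes of high number, and in the female tract Hoxa9, Hoxa10, Hoxa11 and Hoxa13 mark oviduct, uterus, cervix and vagina in that order.

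Total counts ranged from 4138419 to 19517950 per library, but 9 features, mostly ribosomal RNA, held a mean of 85.3% of them. What remained ranged from 33377 to 4694597 counts with a median of 1099966, so that a count of 0 for a Hox gene limits its level only loosely. Levels below are CPM, the counts of a gene scaled to a fixed library total, formed from the remaining counts after TMM scaling, and levels of different genes are compared only per kb of exon. In all, 6 libraries were weak in their own tissue's marker genes or measured few genes (heart of aPAPPA mouse 56 and control mouse 22, gonadal fat of aPAPPA mouse 58, lung of control mouse 68, subscapular fat of control mouse 20 and skin of aPAPPA mouse 36), and the counts of members below are also given without them. Xist ran from 0 to 19.4 CPM in the 99 male libraries and from 182 to 4804 CPM in the 99 female libraries, and the Y-linked Ddx3y from 56 to 238 CPM in male libraries and from 0 to 0.560 CPM in female libraries, so every library matched its labelled sex. In whole tissue, fewer cells of a type and less RNA per cell cannot be told apart.

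The set of Hox genes in use differed from organ to organ. In control mice 30 of 39 reached a mean of 1 CPM in kidney, 29 in skin, 27 in gonadal fat, 23 in subscapular fat, 18 in lung, 11 in heart, 10 each in bone marrow and spleen, and 8 in liver. The mean levels of the 39 genes summed to 429 CPM in kidney, 208 in skin, 196 in gonadal fat and 140.0 in subscapular fat. The same sum was 64.6 CPM in lung, 44 in bone marrow, 39.6 in spleen, 36.4 in heart and 29.6 in liver. Without the control libraries named above as weak, heart had 9 members at 1 CPM and a sum of 25.4 CPM, lower than liver, lung 16 members and 63.1 CPM, and subscapular fat 23 members and 147 CPM. Kidney had the highest mean for 19 members, skin for 7, subscapular fat for 4, gonadal fat for 3 and lung for 2, with the 4 members under 1 CPM in every tissue left out. Of the 11 members of groups 5 to 8, 11 reached 1 CPM in kidney, 10 each in gonadal fat and skin, 9 in subscapular fat, 7 in lung, 3 in heart, 2 each in bone marrow and spleen, and 1 in liver. Of the 16 members of groups 9 to 13, 10 reached 1 CPM in skin, 9 in kidney, 8 in gonadal fat, 4 in subscapular fat, 3 each in bone marrow and heart, and 2 each in lung, spleen and liver, and heart also had 2 without control mouse 22.

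**Figure D1:**
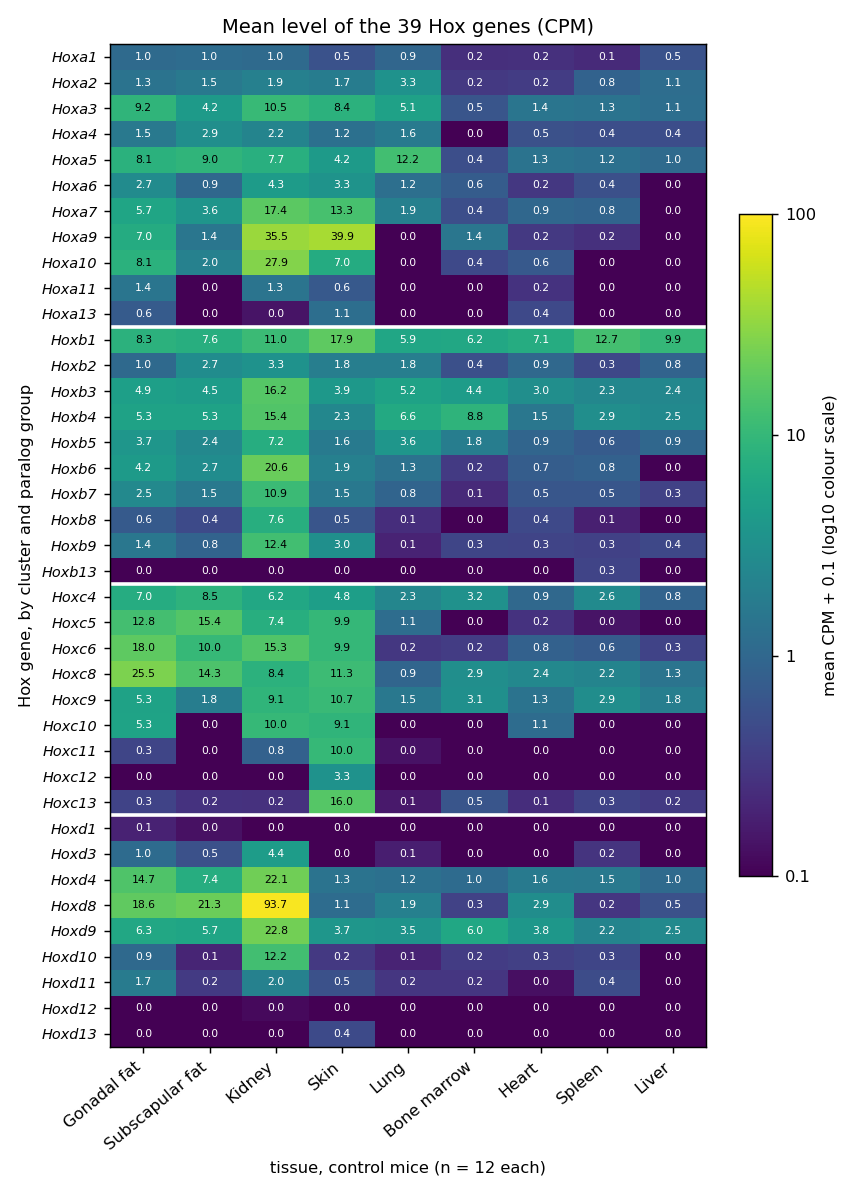
Mean level of each of the 39 Hox genes (rows, by cluster and paralogue group) in each of 9 tissues (columns) over the 12 control mice, in CPM on a log colour scale. Kidney, skin and gonadal fat fill most rows, with 30, 29 and 27 members at 1 CPM or more, while lung holds 2 and liver 2 of the members of groups 9 to 13 at that level.

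Per kb of exon, 5 members led the 9 tissues. Hoxb1 led in 4 of them, heart, liver, skin and spleen, at 3.05 to 7.73 CPM per kb. In skin its lead was narrow, with Hoxa9 next at 7.15 CPM per kb. The skin mean of Hoxb1 (SD 20.7 CPM) was raised by control mice 61 at 78.1 CPM and 55 at 37.2 CPM, and its median was 10.4 CPM. Kidney was led by Hoxd8 at a mean of 34.1 CPM per kb, ahead of Hoxd9 at 10.7 and Hoxb6 at 10.5. Gonadal fat was led by Hoxc8 at 8.99 CPM per kb, Hoxc6 at 7.48 and Hoxd8 at 6.79, and subscapular fat by Hoxd8 at 7.75, Hoxc8 at 5.06 and Hoxc5 at 5.0. In subscapular fat the order moved with skeletal muscle markers: Hoxd8 led at 10.7 CPM per kb in the 6 control libraries rich in them, while Hoxc8 led at 6.97 in the other 6. The leaders of kidney and both fat depots are mostly genes of the trunk groups, which in the embryo are expressed from the chest downwards. Lung was led by Hoxa5, which in mice is needed for the trachea and lung to form, at 6.48 CPM per kb. Bone marrow was led by Hoxb4, a regulator of blood stem cells, at 3.41 CPM per kb. Of the 39, 5 members (Hoxb1, Hoxb3, Hoxb4, Hoxc9 and Hoxd9) reached 1 CPM in all 9 tissues, and 4 (Hoxd1, Hoxd12, Hoxd13 and Hoxb13) reached it in none.

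Skin had the HoxC genes of highest number, which lie at one end of that cluster and are known for their part in hair and nail formation. Hoxc13, which is needed for hair shaft keratins, ran from 3.72 to 50.4 CPM in control skin with a median of 13.7, and its mean in the other 8 tissues was at most 0.513 CPM. Hoxc12 averaged 3.28 ± 1.93 CPM in skin (SD, n = 12) and 0 in the other tissues. Hoxc11 averaged 10.0 ± 5.17 CPM in skin (SD, n = 12). All 12 control skins therefore held Hoxc13, and no library of another tissue reached the lowest of them in control mice, where the highest was 1.49 CPM in liver. Skins were less alike in HoxA genes. Hoxa9 was at 0, 1.47 and 0.49 CPM in control mice 18, 22 and 71, against 30.3 to 78.15 CPM in the other control skins. Hoxa7 was at 0 in the same mice, against 11.8 to 23.3 CPM in the others. Hoxc13 in mice 18, 22 and 71 was at 8.86, 17.6 and 50.4 CPM. Among aPAPPA skins Hoxa9 was at 2.97 CPM in mouse 6 and 0 in mouse 36, against 28.2 to 68.45 CPM in the rest. The source of this split was not tested. The skin values are a description, since skin was not set against other tissues in a fit.

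Within a tissue, the widest Hox differences of the sex and treatment fits lay between the sexes in gonadal fat, the depot that lies on the epididymis in males and along the uterine horns in females. Of 14 members with enough counts for the edgeR quasi-likelihood test, 10 were lower in males at an adjusted p under 0.05, against 6.32% of all 12981 genes tested, and 0 were higher, against 8.4% of all genes. DESeq2 also called 10 lower and 0 higher, and 11 members had an unadjusted p under 0.05. A member at 0 in one sex, such as Hoxc10, passed the low count filter through the other sex alone and could be called in 1 direction only. The same holds for Hoxa10 and Hoxa9, at most 1.67 and 2.01 CPM in males, so the calls of these members were fixed in direction. The differences were steepest for genes of groups 9 and 10.

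Hoxc10, a HoxC gene known in the mouse for patterning lumbar spinal cord and hindlimb level skeleton (chromosome 15, 102966796 to 102971893), was at 0 counts in all 11 male gonadal fats, against 6.15 to 16.0 CPM in the 11 female ones with a median of 10.7. The sexes did not overlap. With 155 counts in females in all and a floor of 3 counts over the male group, it was at least 59.3-fold lower in males (edgeR adjusted p = 2.54e-07). Hoxa10, which the uterus needs to receive the embryo and which in males sets the epididymis apart from the vas deferens (chromosome 6, 52231197 to 52240854), ran from 0 to 1.67 CPM in males with a median of 0, against 6.79 to 21.4 CPM in females with a median of 16.8. Again the ranges did not meet, and the log2 difference was -6.16 (SE 0.41, edgeR adjusted p = 3.94e-10). Hoxa9, its neighbour in the cluster (chromosome 6, 52223100 to 52231089), ran from 0 to 2.01 CPM in males with a median of 0.430, against 6.15 to 18.5 CPM in females with a median of 13.3. Every female gonadal fat lay above every male one, with a log2 difference of -4.47 (SE 0.37, edgeR adjusted p = 2.58e-08). Hoxc9 overlapped between the sexes, at 0 to 3.99 CPM in males with a median of 2.54, against 2.41 to 13.6 CPM in females with a median of 9.81, and differed by -1.96 on the log2 scale (SE 0.37, edgeR adjusted p = 0.00118).

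The other members lower in males were Hoxa3, Hoxd9, Hoxa5, Hoxd4, Hoxc6 and Hoxd8, with log2 differences from -1.36 for Hoxa3 to -0.51 for Hoxd8. Hoxc8, the leading Hox gene of this depot per kb, did not pass at -0.23 (SE 0.20, edgeR adjusted p = 0.471), nor did Hoxc4, Hoxc5 or Hoxb1. Hoxc8 ran from 9.87 to 35.6 CPM in males and from 13.9 to 40.7 CPM in females. Among the 14 tested members the sexes were fully apart for Hoxc10, Hoxa10 and Hoxa9, all of groups 9 and 10, and overlapped for the rest. The share of all genes with sexes fully apart was not computed, so this describes the members only.

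**Figure D2:**
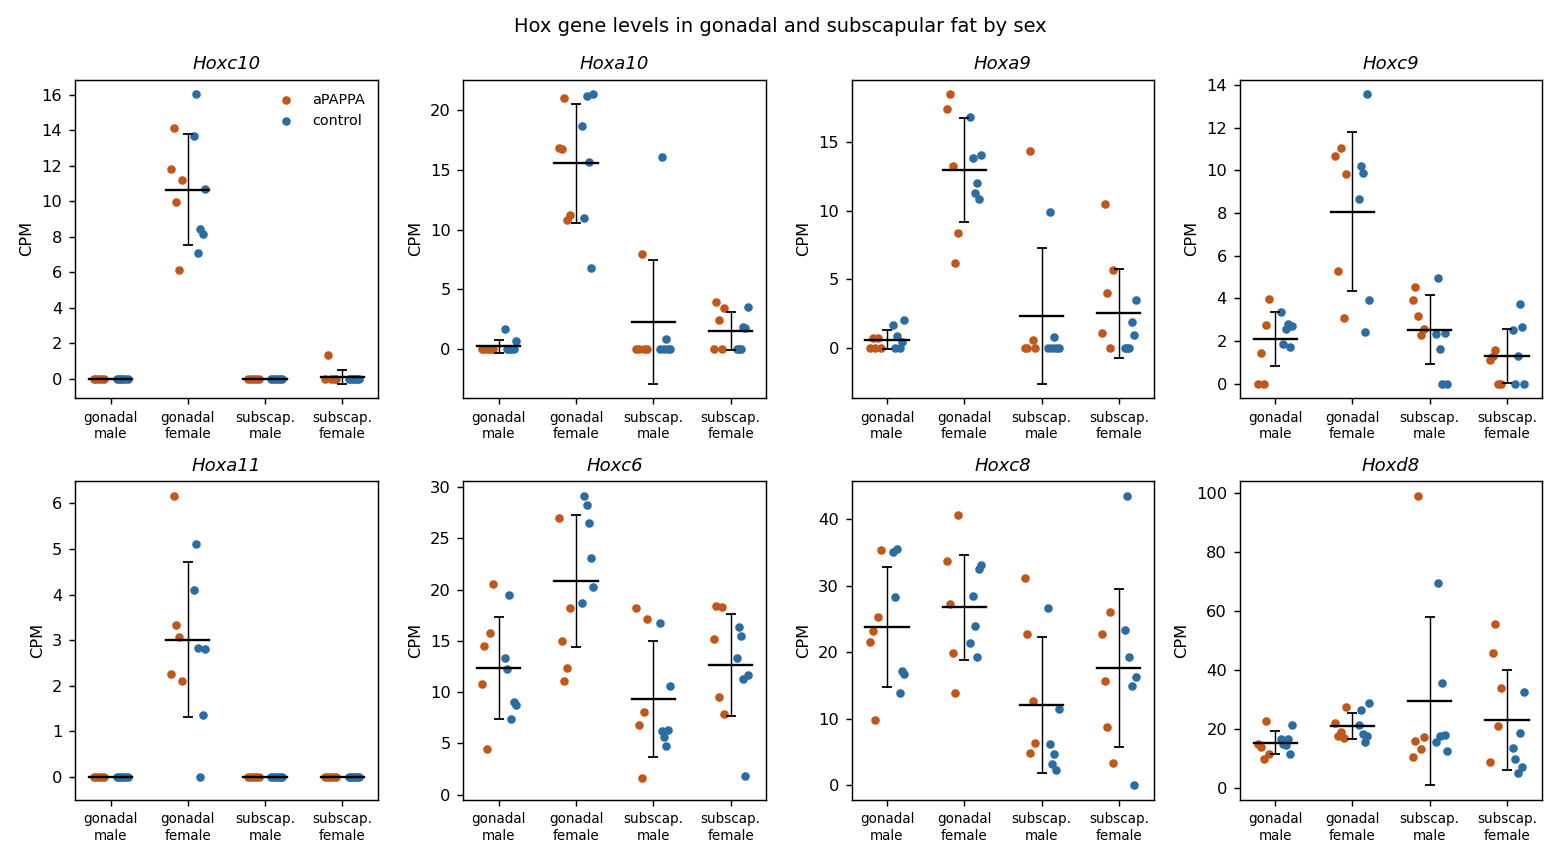
Level in CPM of 8 Hox genes in gonadal and subscapular fat of 11 male and 11 female mice, with aPAPPA mice in orange to the left of control mice in blue, the line at the mean and the bar 1 SD over 11 mice. Hoxc10 is at 0 in all male gonadal fats and at 6.15 CPM or more in all female ones, while Hoxc8 spans a like range in each sex.

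Members of still higher number had too few counts for the filtered fit. Without the filter, 15 of 35 members were lower in males and 0 higher, against 1.88% of all genes lower. The 35 tested left out only Hoxb13, Hoxc12, Hoxd12 and Hoxd13, which had no count in this depot. The 15 called comprised 7 HoxA, 4 HoxC, 4 HoxD and no HoxB genes. They added Hoxa6, Hoxa7, Hoxa11, Hoxa13, Hoxc11, Hoxd10 and Hoxd11 and lost Hoxa5 and Hoxd8. Hoxa11, Hoxa13 and Hoxc11, also at 0 in every male, are named after their values were seen. Hoxa11, a gene of limb, kidney and uterine development, was at 0 in all 11 males, against 0 to 6.17 CPM in females with a median of 2.83, at least 16.5-fold lower in males (edgeR adjusted p = 0.000167). Hoxa13, the last gene of its cluster, needed for digits and the lower genital tract, was also at 0 in all males, against 0 to 6.64 CPM in females with a median of 1.69, at least 9.95-fold lower (edgeR adjusted p = 0.000544). For both genes 10 of 11 female libraries held counts, so the ranges touched only at 0. Hoxc11 held 12 counts over the 11 females and 0 in males. The antisense gene Hoxa11os, which overlaps Hoxa11 on the other strand, ran from 0.701 to 4.62 CPM in females and was at 0 in all males. Since 35% of Hoxa11 exon bases lie opposite another gene and the strand setting of the counting is not given in the sources used here, reads of Hoxa11 and Hoxa11os cannot be told apart.

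The bases just before the annotated starts of the HoxA members at issue are shown because the 4 genes were lower in males together and lie in a row in their cluster. Each is the 250 bases upstream of an annotated start in RefSeq on GRCm38.p6 (5′ to 3′ on the minus strand). In capitals are the matches to AGAACA (a site of the androgen and glucocorticoid receptors), CCAAT and TATAAA.
Hoxa9, chr6:52227371-52227620: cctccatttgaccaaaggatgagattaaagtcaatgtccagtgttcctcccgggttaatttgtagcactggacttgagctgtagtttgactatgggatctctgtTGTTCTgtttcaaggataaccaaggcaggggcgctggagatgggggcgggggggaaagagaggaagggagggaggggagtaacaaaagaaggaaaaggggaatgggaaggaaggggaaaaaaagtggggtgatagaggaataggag
Hoxa10, chr6:52234940-52235189: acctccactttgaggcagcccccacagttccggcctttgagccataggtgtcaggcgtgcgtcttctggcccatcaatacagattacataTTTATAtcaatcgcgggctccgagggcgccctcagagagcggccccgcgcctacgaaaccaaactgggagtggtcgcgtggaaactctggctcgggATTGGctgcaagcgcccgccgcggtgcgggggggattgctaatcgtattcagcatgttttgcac
Hoxa11, chr6:52245811-52246060: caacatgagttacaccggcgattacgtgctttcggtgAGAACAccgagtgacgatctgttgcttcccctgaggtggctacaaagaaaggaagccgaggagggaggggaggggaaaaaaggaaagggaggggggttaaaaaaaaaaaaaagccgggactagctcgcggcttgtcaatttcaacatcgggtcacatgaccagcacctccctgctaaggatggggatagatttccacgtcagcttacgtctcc
Hoxa13, chr6:52260881-52261130: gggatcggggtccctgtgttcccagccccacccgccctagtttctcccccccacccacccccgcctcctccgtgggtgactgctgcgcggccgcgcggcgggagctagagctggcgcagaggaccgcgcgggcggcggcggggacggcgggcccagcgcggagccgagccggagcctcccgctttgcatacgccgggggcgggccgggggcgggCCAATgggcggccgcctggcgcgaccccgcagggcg
AGAACA, read on both strands, was found once each before Hoxa9 and Hoxa11. CCAAT was found once each before Hoxa10 and Hoxa13, and TATAAA once, before Hoxa10. The windows shown for Hoxa9 and Hoxa10 lie inside the spans of the genes given above. Hoxa10 has another annotated start, 52240854, whose window is not printed and held no match to any sequence searched for here. No match to AGGTCA, the core of the oestrogen and retinoic acid receptor sites, or to the Hox and Pbx pair site TGATNNAT lay in these windows. The same windows of all 32851 RefSeq promoters of the table held AGAACA in 16.1%, CCAAT in 33.8%, TATAAA in 12.4%, AGGTCA in 14% and TGATNNAT in 7.68%. The windows differed in base composition, at 49.6% GC for Hoxa9, 59.2% for Hoxa10, 52% for Hoxa11 and 80.0% for Hoxa13. Of the 39 members 22 had an entry in the promoter table.

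The sex difference was present in each arm. In aPAPPA mice Hoxc10 was at 0 in 5 males, against 6.15, 9.97, 11.2, 11.8 and 14.1 CPM in 5 females, and in control mice at 0 in 6 males, against 7.07 to 16.0 CPM in 6 females. Hoxa10 was likewise at 0 in the 5 male aPAPPA mice, against 10.8 to 21 CPM in female aPAPPA mice. In neither arm did males and females overlap for Hoxc10, Hoxa10 or Hoxa9. Fitted alone, aPAPPA mice gave 1 of 8 members lower, Hoxa10 (edgeR adjusted p = 0.00356), against 0.0405% of all genes, and control mice gave 3 of 7 lower, against 2.6%. The 3 were Hoxa9 at -4.07 (edgeR adjusted p = 0.000229), Hoxc6 at -1.08 (0.0181) and Hoxa5 at -1.03 (0.0441). Hoxa10, at 0 in all 5 aPAPPA males, passed the low count filter through females alone and could be called in 1 direction only in that arm. So did Hoxa9 in control mice, where males were at 2.01 CPM or less. Without the gonadal fat of aPAPPA mouse 58, 11 of 15 members were lower in males, against 5.32% of all genes.

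Counts from groups 9 to 13 made up a median of 6.84% of all Hox counts in male gonadal fat (range 4.04% to 10.3%), against 25.4% in female gonadal fat (range 21.4% to 34.9%). The ranges of the sexes did not meet in this depot. In subscapular fat the medians were 5.71% in males and 8.73% in females, in kidney 34.8% and 29.3%, and in skin 49.3% and 50.6%. Lung and bone marrow also had like shares, at 8.48% in male and 9.64% in female lung and at 29.5% in male and 28.3% in female marrow. These shares are a description of the members, with no test.

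**Figure D3:**
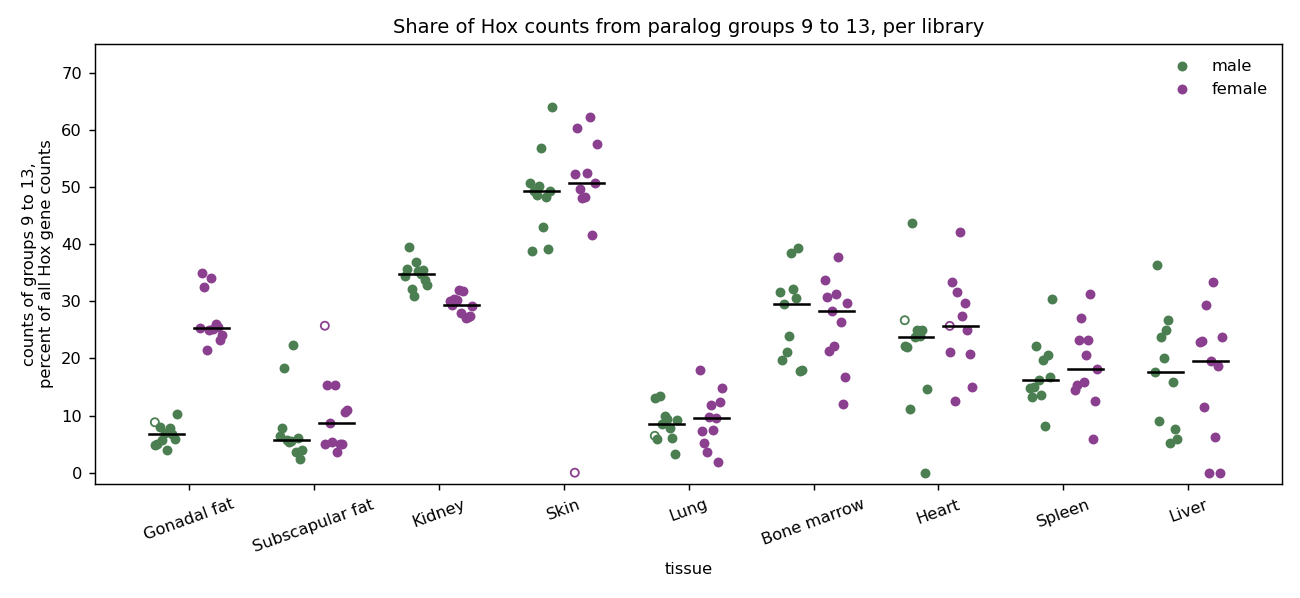
Share of each library's Hox counts that came from paralogue groups 9 to 13, in percent, by tissue and sex, with males left of females, the line at the median of 11 libraries and open points for the 6 libraries in doubt. In gonadal fat every female library (21.4% or more) lies above every male one (10.3% or less).

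Markers of other cell types also differed between the sexes in the same depot, given here without a test. Markers of uterine and oviduct epithelium averaged 1.37 to 2.49 log2 CPM in males with a median of 1.71, against 2.07 to 2.67 in females with a median of 2.35. Within that list of 7 genes Pax8 and Foxa2 were at 0 in 10 of 11 libraries of each sex and Ltf in 8 of 11. Ovgp1, an oviduct gene, had a median of 1.70 CPM in males with 2 libraries at 0, and of 3.08 CPM in females with none at 0, and Msx1 medians of 0.847 CPM in males and 1.13 CPM in females. Esr1, the oestrogen receptor, which fat also expresses, ran from 16.2 to 103 CPM in males and from 133 to 210 CPM in females. Pgr, the progesterone receptor, had a median of 0 CPM in males and 5.65 CPM in females. In subscapular fat the uterine and oviduct list had medians of 2.0 log2 CPM in males and 3.48 in females. The keratinocyte list there had medians of 1.12 and 2.37, and the neutrophil list of 0.95 and 1.67, in the same order. Which genes of these lists carried the medians in subscapular fat is not reported here. Of 8 epididymis markers, 6 (Defb20, Crisp1, Lcn8, Lcn5, Spink13 and Cst8) were at 0 in all 22 gonadal fats. Of the other 2, Rnase10 had counts in 7 of 11 males and 10 of 11 females, and Adam7 in 1 male at 21.4 CPM. Mesothelium markers averaged 3.08 to 6.34 log2 CPM in males with a median of 5.56 and 4.38 to 6.92 in females with a median of 6.15. The adipocyte list had medians of 9.76 in males and 10.2 in females, and the fibroblast list of 8.68 in males and 9.13 in females. The widest gap of medians among the 18 lists was that of hepatocyte markers, at 4.13 in males and 2.03 in females. The part of any of these cell types in the Hox differences was not tested.

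Gonadal fat was then set against subscapular fat. In control mice 2 of 9 tested members were higher in gonadal fat, against 13.6% of all 12568 genes, and 0 were lower, against 16.7%, by edgeR. DESeq2 also called 2 higher and 0 lower, and 3 had an unadjusted p under 0.05. Hoxd4, a gene of the neck region in the embryo, ran from 4.83 to 31.4 CPM in gonadal fat with a median of 14.3, against 2.66 to 12.9 CPM in subscapular fat with a median of 7.06. Its log2 difference was 0.90 (SE 0.28, edgeR adjusted p = 0.0187). Hoxc6, a gene of the chest region, ran from 7.39 to 29.2 CPM in gonadal fat with a median of 19.1, against 1.77 to 16.8 CPM in subscapular fat with a median of 11, a log2 difference of 0.72 (SE 0.25, edgeR adjusted p = 0.0298). The ranges of the depots overlapped for both genes, and 52.3% of Hoxd4 exon bases are shared with Hoxd3 and a read-through gene, so their counts are uncertain. Hoxd4 did not pass without mouse 4 (edgeR adjusted p = 0.0569), and Hoxc6 did not pass without mouse 11, 18, 45 or 55. Without the doubted subscapular fat of mouse 20 both passed, as 2 of 10 members higher, against 16.7% of all genes, and 0 were lower, against 18.6%, with 3 members at an unadjusted p under 0.05.

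Subscapular fat of the 12 control mice held no count of Hoxc10, Hoxa11, Hoxa13 or Hoxc11. In gonadal fat of the same mice Hoxc10 held 89 counts, at least 28.5-fold higher, Hoxa11 24 counts, at least 7.69-fold higher, Hoxa13 10 counts, at least 3.20-fold higher, and Hoxc11 5 counts, at least 1.6-fold higher. The counts of all 4 genes came from the 6 females, and the 6 males were at 0 in both depots. Without the filter on low counts 6 of 35 members were higher in gonadal fat (Hoxc10, Hoxa11, Hoxa13, Hoxd11, Hoxa3 and Hoxd4), against 5.42% of all genes.

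In aPAPPA mice, which share no animal with the controls, 1 of 6 tested members was higher in gonadal fat, against 19.2% of all 11780 genes, and 1 was lower, against 20.1%. Hoxd4 was higher, at 2.69 to 21.5 CPM in gonadal fat with a median of 13.9, against 2.28 to 12.8 CPM in subscapular fat with a median of 7.77 (log2 difference 0.78, SE 0.29, edgeR adjusted p = 0.0354, and 0.0912 with the mouse as a block). Hoxc5, a trunk gene, was lower, at 2.69 to 14.8 CPM in gonadal fat with a median of 8.17, against 7.96 to 23.6 CPM in subscapular fat with a median of 16.4 (log2 difference -0.87, SE 0.26, edgeR adjusted p = 0.0103). Both genes overlapped between the depots. With the filter left out 3 of 35 members were higher, against 7.95% of all genes. Without the doubted gonadal fat of mouse 58, 1 of 7 was higher, against 17.4%, and 1 lower, against 19.6%.

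Skeletal muscle markers differed between the depots, with medians of 1.66 log2 CPM in male and 1.61 in female gonadal fat, against 8.87 in male and 10.6 in female subscapular fat, and 14 of 22 subscapular fats (8 aPAPPA, 6 control) averaged above 5. The brown adipocyte list had medians of 1.77 in male and 1.05 in female gonadal fat, against 6.84 in male and 5.73 in female subscapular fat. Without the muscle-rich libraries, a fit chosen after seeing the data, neither Hoxd4 (adjusted p = 0.15) nor Hoxc6 (adjusted p = 0.172) passed in control mice by edgeR. Hoxc10, Hoxa10 and Hoxa9 were at 0 in the 6 control subscapular fats left and passed the low count filter through gonadal fat alone, so their calls in that fit carry no weight. Over both arms Hoxa9 had counts in 11 of the 14 muscle-rich subscapular fats and in 0 of the other 8, and Hoxa10 in 9 of 14 and 0 of 8. Whether muscle carries these counts was not tested. In aPAPPA mice the same fit, with 10 gonadal fats against 2 subscapular fats, gave Hoxd4 a log2 difference of 0.01 (edgeR adjusted p = 0.99).

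Fitted by sex, the depots gave other calls. In female control mice alone 1 of 7 tested members passed, Hoxa9, higher in gonadal fat by 3.88 on the log2 scale (SE 0.55, edgeR adjusted p = 0.00164), against 2.89% of all genes. In female aPAPPA mice 2 of 7 passed, Hoxa10 at 2.89 (edgeR adjusted p = 0.00285) and Hoxd4 at 1.3 (0.00711), against 10.1% of all genes higher. In subscapular fat Hoxa9 ran only from 0 to 3.49 CPM in female control mice and Hoxa10 from 0 to 3.93 CPM in female aPAPPA mice. Both were therefore tested mainly on their counts in gonadal fat. In male control mice 0 of 8 passed by edgeR, with 2 at an unadjusted p under 0.05, against 30% of all genes, and DESeq2 was not run on them. In male aPAPPA mice 1 of 6 passed, Hoxc5, lower in gonadal fat (log2 difference -1.44, edgeR adjusted p = 0.0187), against 10.7% of all genes lower. These 4 fits were chosen after seeing the data. The difference itself was tested as a sex by depot term over all 44 fat libraries, where 4 of 12 members passed, each with a male minus female difference that was lower in gonadal than in subscapular fat, against 5.8% of all 13283 genes in that direction.

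Hoxa10 carried the largest such term, at -6.21 (SE 1.24, edgeR adjusted p = 0.00203). In subscapular fat it had a median of 0 CPM in males and 1.77 CPM in females, and its highest values there were 16.1 CPM in control male 45 and 7.98 CPM in aPAPPA male 58, against at most 3.93 CPM in females. Hoxa9 had a term of -3.95 (SE 1.12, edgeR adjusted p = 0.0239), Hoxa5 one of -1.86 (SE 0.58, adjusted p = 0.0365) and Hoxc5 one of -1.20 (SE 0.35, adjusted p = 0.029). Hoxa10 and Hoxa9 had subscapular counts in 9 and 11 of the 14 muscle-rich libraries and in 0 of the other 8. The subscapular side of their terms thus rests on muscle-rich libraries, and the term was not fitted without them. With the mouse as a block, which pairs the depots of each animal, 1 of the 4 passed, Hoxa10 at -6.01 (edgeR adjusted p = 0.031), while Hoxa9 had an adjusted p of 0.107, Hoxa5 0.0944 and Hoxc5 0.0569. Without the libraries in doubt 2 of 14 members passed, Hoxa10 and Hoxa9, against 2.92% of all genes, Hoxa9 with an adjusted p of 0.0465. For Hoxc10 the term could not be estimated by edgeR, as male fat of both depots was at 0.

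Proteins that bind DNA together with Hox proteins were measured alongside. Of 9 cofactors of the TALE class (Pbx, Meis and Pknox genes), 8 were tested in gonadal against subscapular fat of control mice, and 4 were higher, against 13.6% of all genes, and 0 lower, against 16.7%, with a list median of 0.35 on the log2 scale against -0.04 over all genes. Among these were Meis1 at 1.13, Pbx3 at 0.67 and Meis2 at 0.45. Between the sexes in gonadal fat 4 of 8 were lower in males, against 6.32% of all genes, and 0 higher, against 8.4%, with a median of -0.49 against -0.01 over all genes. Meis2 ran from 4.49 to 26.2 CPM in males and from 20 to 49.6 CPM in females, a log2 difference of -0.97 (SE 0.19, edgeR adjusted p = 0.00138). Pknox2 differed by -1.31 and Meis1 by -0.77, and the ranges of the sexes overlapped for these genes.

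Of 33 other transcription factors of positional use, 10 were tested between the depots in control mice, and 4 were higher in gonadal fat (Wt1 at 4.27, Gata6 at 1.58, Osr1 at 1.52 and Tbx18 at 1.10) and 2 lower, among them Tbx15 at -6.97, against the same 13.6% and 16.7% of all genes, with a list median of 0.16 against -0.04 over all genes. Wt1 is also a mesothelial gene. In gonadal fat by sex 3 of 9 were lower in males, among them Gata6 and Nr2f2, against 6.32% of all genes, and 0 higher, against 8.4%, with a list median of -0.30 against -0.01. Of 15 retinoic acid and axial signal genes 9 were tested between the depots, with 2 higher in gonadal fat (Aldh1a2, which makes retinoic acid, at 3.04, and Rara at 0.58) and 1 lower (Rarb at -1.08) and a list median of 0.07, set against those shares. Of 21 chromatin regulators of Hox clusters 19 were tested, with 0 higher, against 13.6% of all genes, and 6 lower in gonadal fat, against 16.7%, and a median of -0.18 against -0.04 over all genes. Among 16 noncoding genes of the clusters none had enough counts for the test between depots. Of 2 tested between the sexes in gonadal fat, Hoxd3os1 was lower in males with a log2 difference of -0.92 (edgeR adjusted p = 0.028). It shares 347 exon bases with Hoxd4 and with Hoxd3 on the opposite strand. As the strand setting of the counting is not given, their reads there cannot be told apart. In control mice the mesothelium list averaged 5.83 log2 CPM in gonadal fat, against 1.67 in subscapular fat. Skeletal muscle and brown adipocyte markers also differed between the depots, as given above. The part of these cell types in the depot differences of the cofactors and of the lists in this paragraph was not tested.

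Gonadal fat and kidney are both abdominal tissues, and 12 of 19 tested members were lower in gonadal fat than in kidney of control mice, against 31.4% of all 13074 genes, while 2 were higher, against 35.8%. Hoxd8, a gene of the lower trunk, ran from 11.6 to 28.7 CPM in gonadal fat with a median of 17.2, against 67.7 to 131 CPM in kidney with a median of 88.7. The groups did not overlap, and the log2 difference was -2.30 (SE 0.10, edgeR adjusted p = 1.17e-16). Hoxd10, a lumbar gene, ran from 0 to 2.81 CPM in gonadal fat, against 6.56 to 18.4 CPM in kidney (log2 difference -3.55, SE 0.34, edgeR adjusted p = 5.86e-10). It passed the low count filter through kidney alone. Hoxa9 had a median of 6.43 CPM in gonadal fat and 35.1 CPM in kidney (log2 difference -2.48), and Hoxa10 medians of 4.23 and 27.3 CPM in the same order (log2 difference -2.05). These values pool sexes that differ in gonadal fat. In female control mice Hoxa9 had medians of 13 CPM in gonadal fat and 31.7 CPM in kidney, and Hoxa10 of 17.2 and 25.1 CPM. In male control mice the medians were 0.638 CPM in gonadal fat and 39.2 CPM in kidney for Hoxa9, and 0 and 31.9 CPM for Hoxa10. Hoxb6, at -2.18, and Hoxb7, at -1.96, were also lower in gonadal fat. Of the 6 largest differences Hoxa10 alone overlapped between the tissues, a description for which the share over all genes was not computed. In all 2 members of the HoxC cluster went the other way. Hoxc8, which patterns the chest, ran from 13.9 to 35.6 CPM in gonadal fat with a median of 26.1, against 5.94 to 14 CPM in kidney with a median of 7.40 (log2 difference 1.66, SE 0.19, edgeR adjusted p = 1.08e-08), and Hoxc5 differed by 0.78 (SE 0.27, edgeR adjusted p = 0.0125).

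The kidney arises from mesoderm at lumbar level, and the lung from the foregut at neck level. Against lung, kidney was higher for 13 of 15 tested members in control mice, against 31.5% of all 13779 genes, and lower for 1, against 35.4%. Hoxa9 ran from 19.1 to 46.0 CPM in kidney with a median of 35.1, and was at 0 in all 12 control lungs, at least 238-fold higher in kidney (edgeR adjusted p = 8.7e-14). Hoxa10 ran from 19.1 to 35.6 CPM in kidney and was at 0 in all 12 lungs, at least 187-fold higher (edgeR adjusted p = 8.54e-14). No lung thus reached any kidney for these genes, which passed the low count filter through kidney alone. Hoxc10 and Hoxa11 were also at 0 in all 12 lungs, at least 68.8-fold and 11.8-fold higher in kidney. Hoxd10 differed by 6.13 (SE 0.35), Hoxc6 by 5.80 (SE 0.33), Hoxd8 by 5.49 (SE 0.39) and Hoxd4 by 3.99 (SE 0.38) on the log2 scale, with edgeR adjusted p-values of 7.54e-10 or smaller. Hoxd10 and Hoxc6, at most 0.656 and 0.938 CPM in lung, also passed the filter through kidney alone. Hoxa5 was the one called lower in kidney, at 2.73 to 14 CPM with a median of 7.75, against 8.45 to 16.0 CPM in lung with a median of 12.0 (log2 difference -0.63, SE 0.20, edgeR adjusted p = 0.00812). Its ranges overlapped. Without the filter 26 of 35 members were higher in kidney, against 14.6% of all genes.

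Gonadal fat was also set against lung. Of 7 tested in control mice 5 were higher in gonadal fat, against 30% of all 13663 genes, and 1 was lower, against 29.9%. Hoxc6 ran from 7.39 to 29.2 CPM in gonadal fat, against 0 to 0.938 CPM in lung (log2 difference 5.92, SE 0.36, edgeR adjusted p = 2.84e-11), and Hoxc8 from 13.9 to 35.6 CPM, against 0 to 2.0 CPM in lung (log2 difference 4.70, SE 0.29, edgeR adjusted p = 2.84e-11). Neither overlapped. Hoxd4 differed by 3.39, Hoxc5 by 3.33 and Hoxd8 by 3.19. Their lung medians were 0.682, 0.662 and 0.728 CPM, so they too were tested mainly on gonadal fat. Hoxa5 was lower in gonadal fat, at 2.54 to 12.4 CPM against 8.45 to 16.0 CPM in lung (log2 difference -0.66, SE 0.21, edgeR adjusted p = 0.00821). The lung of control male 68, whose adipocyte markers were high, held the highest lung values of Hoxd8 at 11.8 CPM, Hoxd4 at 5.90 CPM and Hoxc5 at 5.24 CPM, with Hoxc10, Hoxa9 and Hoxa10 at 0. Without it 6 of 8 members were higher in gonadal fat than in lung, against 29.9% of all genes, and 14 of 16 higher in kidney than in lung, against 32.5%, with Hoxd8 at 6.19 and Hoxd4 at 4.47 between kidney and lung. The lung comparisons share these 12 control lungs.

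Bone marrow held few Hox genes of the trunk. Of 7 members tested between gonadal fat and bone marrow of control mice 4 were higher in gonadal fat, against 42.5% of all 13998 genes, and 1 was lower, against 41.3%. Hoxc6 ran from 7.39 to 29.2 CPM in gonadal fat, against 0 to 0.737 CPM in marrow (log2 difference 5.54, SE 0.31, edgeR adjusted p = 2.45e-15), and Hoxd8 from 11.6 to 28.7 CPM, against 0 to 0.796 CPM in marrow (log2 difference 5.44, SE 0.30, edgeR adjusted p = 1.46e-15). Hoxc6 and Hoxd8 passed the low count filter through gonadal fat alone and could be called in 1 direction only. Hoxd4 differed by 3.6 and Hoxc8 by 3.01. At most 3.59 and 5.58 CPM in marrow, these 2 were tested mainly on their counts in gonadal fat. Hoxb4 was lower in gonadal fat, at 1.70 to 9.83 CPM with a median of 5.45, against 4.39 to 14.4 CPM in marrow with a median of 9.01 (log2 difference -0.89, SE 0.24, edgeR adjusted p = 0.00121), and its ranges overlapped. Hoxa9, a gene of blood progenitors, had a median of 1.53 CPM in control marrow. Without the filter 25 of 35 members were higher in gonadal fat, against 26.6% of all genes, and 1 was lower, against 28.3%.

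Between bone marrow and spleen, both blood-forming in mice, 1 member could be tested in control mice and 0 passed by edgeR, against 35.6% of all 13282 genes higher and 36.1% lower, with 0 at an unadjusted p under 0.05. That member, Hoxb1, had a log2 difference of -0.71 (SE 0.38, edgeR adjusted p = 0.1), and DESeq2 called it lower in marrow. Without the filter 5 of 31 members were higher in marrow, against 20% of all genes, and 3 lower, against 21.4%. Those higher in marrow included Hoxa9 at 2.58 (edgeR adjusted p = 0.00047) and Hoxb4 at 1.56 (edgeR adjusted p = 5.94e-06), named after their values were seen. Hoxb1, a hindbrain gene in the embryo, ranged in its tissue means from a mean of 5.90 CPM in control lung to 18 CPM in control skin.

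Kidney also differed between the sexes in its Hox genes. Over all 22 mice 7 of 22 tested members were lower in males, against 13% of all 12102 genes, and 1 was higher, against 12.6%. RLE scaling gave 3 higher, against 13.4% of all genes, as did DESeq2, against 13.9%, where Hoxa7 and Hoxa10 joined Hoxa9. Hoxb9 ran from 3.26 to 15.8 CPM in males with a median of 7.87, against 11.9 to 29.0 CPM in females with a median of 17.8. Males and females overlapped in a narrow band, and the log2 difference was -1.28 (SE 0.19, edgeR adjusted p = 1.44e-05). Hoxb8 had medians of 4.69 CPM in males and 10.4 CPM in females (log2 difference -1.07, SE 0.32, edgeR adjusted p = 0.0134), and Hoxb5 medians of 4.87 CPM in males and 9.97 CPM in females (log2 difference -1.06, SE 0.25, edgeR adjusted p = 0.00216). Hoxd8 ran from 52.6 to 92.8 CPM in males with a median of 73.3, against 71.8 to 143 CPM in females with a median of 111 (log2 difference -0.63, SE 0.10, edgeR adjusted p = 3.15e-05). Hoxd4, Hoxb6 and Hoxd10 were lower in males by smaller log2 differences, from -0.61 to -0.51. Hoxa9 was higher in males, at 29.7 to 48.7 CPM with a median of 40.1, against 19.1 to 38.3 CPM in females with a median of 31.7 (log2 difference 0.31, SE 0.10, edgeR adjusted p = 0.0317). Hoxb8, Hoxb5, Hoxd8 and Hoxa9 overlapped between the sexes too. Fitted alone, aPAPPA mice gave 2 of 15 members called (Hoxb9 and Hoxd8), against 12.3% of all genes, and control mice 4 of 17, against 13.8%, with Hoxb9 at -0.97 in aPAPPA mice and -1.58 in control mice. Kidney tubule markers had medians of 10.6 log2 CPM in each sex. The adipocyte list had medians of 5.02 in males and 4.0 in females, the brown adipocyte list of 2.18 in males and 1.23 in females, and the fibroblast list of 5.33 in males and 4.92 in females, and their part in the kidney differences was not tested.

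**Figure D4:**
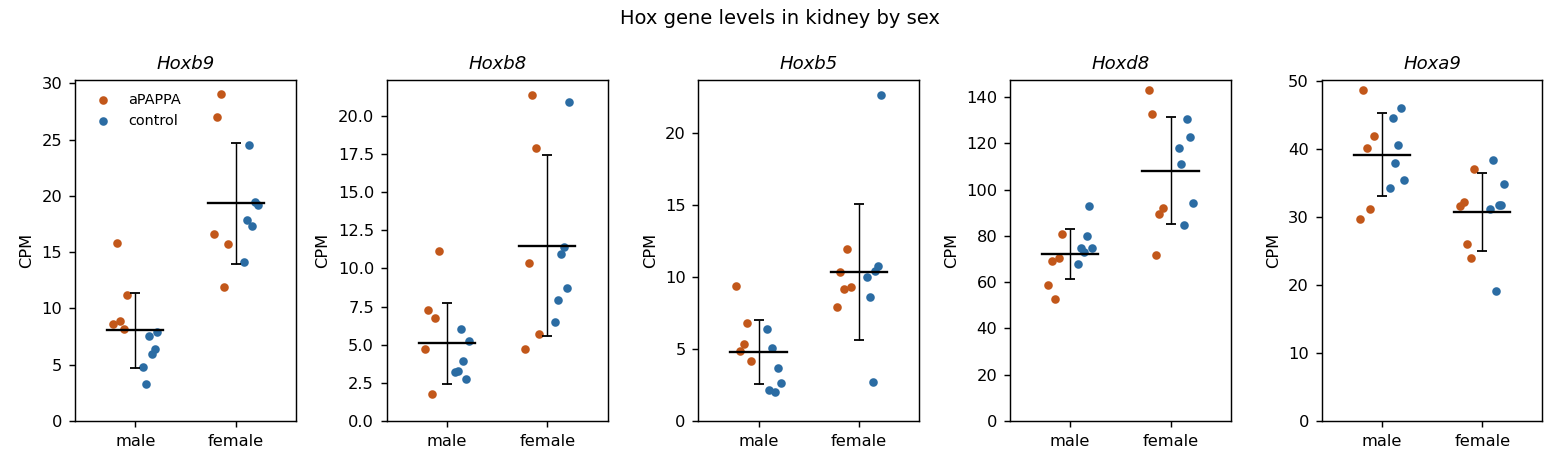
Level in CPM of 5 Hox genes in the kidney of 11 male and 11 female mice, with aPAPPA mice in orange to the left of control mice in blue, the line at the mean and the bar 1 SD over 11 mice. Hoxb9, Hoxb8, Hoxb5 and Hoxd8 lie lower in males, with medians for Hoxb9 of 7.87 CPM in males and 17.8 CPM in females, and Hoxa9 lies higher, at 40.1 and 31.7 CPM.

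In the other tissues examined by sex few members passed. In subscapular fat 1 of 5 was lower in males, against 7.69% of all 11593 genes, and 0 were higher by edgeR, against 7.91%, where DESeq2 called 1 higher and 2 had an unadjusted p under 0.05. Without the doubted library 1 of 6 was lower, against 6.62%, and 0 higher, against 6.11%. The member lower in males was Hoxb1, at 3.15 to 15.9 CPM in males with a median of 5.21, against 7.5 to 19.5 CPM in females with a median of 10.5 (log2 difference -1.0, SE 0.24, edgeR adjusted p = 0.0101), with overlapping ranges. A dependence of this call on library depth was not tested. In lung 0 of 3 passed by edgeR, against 0.142% of all genes, as did 0 of 2 without control mouse 68, and in bone marrow 0 of 3, against 0.697%. In each, DESeq2 called 0 and 1 member, Hoxb1, had an unadjusted p under 0.05. Its log2 difference, male minus female, was -0.77 in lung (edgeR adjusted p = 0.429) and 1.00 in marrow (edgeR adjusted p = 0.12).

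The antibody was the question of the study, and no Hox gene passed for it in any tissue. By edgeR 0 of 22 tested members passed in kidney, 0 of 14 in gonadal fat, 0 of 7 in skin, 0 of 5 in subscapular fat, 0 of 3 in lung and 0 of 1 in spleen, where 0.0% of all genes passed in each of these tissues. In bone marrow 0 of 3 passed, against 0.00757% of all genes, and in heart and liver no member had enough counts. DESeq2 called 0 in every tissue, and 2 members in kidney, 1 in subscapular fat and 0 elsewhere had an unadjusted p under 0.05. Without the doubted libraries edgeR called 0 of 15 in gonadal fat, 0 of 9 in skin, 0 of 6 in subscapular fat and 0 of 2 in lung, where again 0.0% of all genes passed and 1 member, in subscapular fat, had an unadjusted p under 0.05.

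The members nearest to a call are given as values. In kidney Hoxb9 ran from 8.13 to 29.0 CPM in aPAPPA mice with a median of 13.8, against 3.26 to 24.6 CPM in control mice with a median of 11 (log2 difference 0.43, SE 0.19, p = 0.0317 by edgeR, adjusted p = 1.0). Hoxa5 in kidney had medians of 11.9 CPM in aPAPPA mice and 7.75 CPM in control mice (log2 difference 0.50, SE 0.22, edgeR adjusted p = 1.0). In subscapular fat Hoxb1 ran from 3.81 to 19.5 CPM in aPAPPA mice with a median of 11.5, against 3.15 to 14.1 CPM in control mice with a median of 7.51 (log2 difference 0.59, SE 0.24, edgeR adjusted p = 1.0). The arms overlapped for all 3. In gonadal fat the smallest p belonged to Hoxc5, at a median of 8.17 CPM in aPAPPA mice and 10.6 CPM in control mice (log2 difference -0.48, SE 0.27, edgeR adjusted p = 0.971). Hoxb4 and Hoxd9 in bone marrow, Hoxa5 and Hoxb4 in lung and Hoxc13 in skin had log2 differences from -0.46 to 0.07. In skin Hoxb1 reached 250 CPM in aPAPPA mouse 36, whose library held 16 Hox counts in all, and its log2 difference over skin was -0.03 (SE 0.60) by edgeR and 0.92 by DESeq2. Hoxb1 in spleen differed by -0.24 (SE 0.39).

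**Figure D5:**
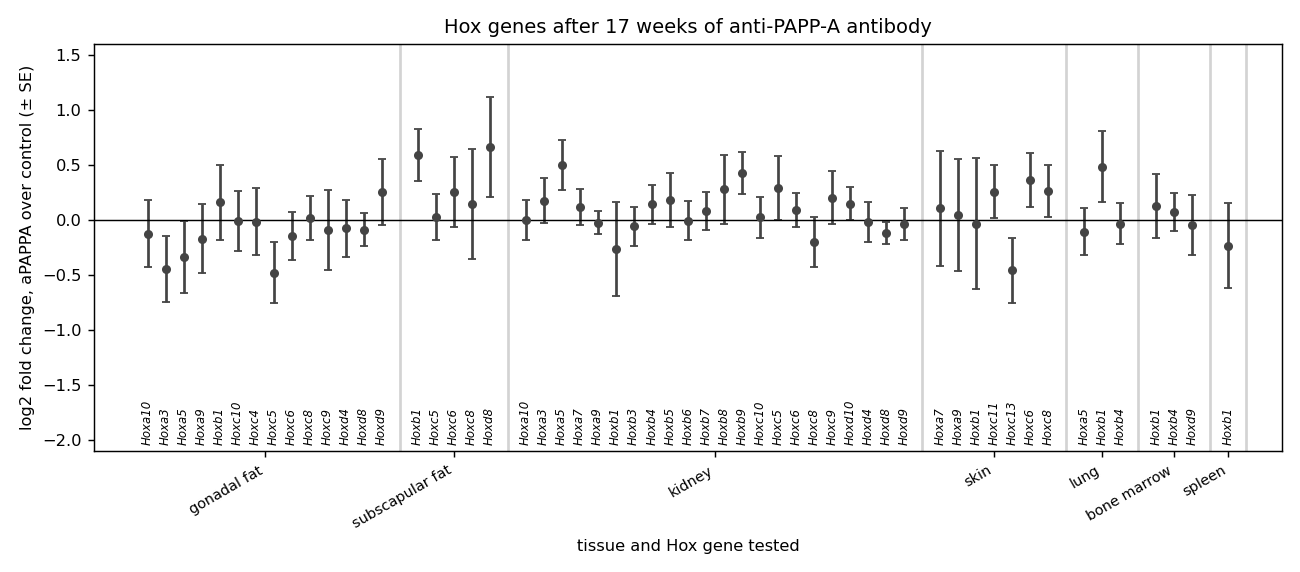
Log2 difference, aPAPPA minus control, with SE, of every Hox gene tested in 7 tissues (10 aPAPPA and 12 control mice each, edgeR with sex as a covariate), with none tested in heart and liver. No member passes an adjusted p of 0.05, and the estimates lie on both sides of 0 in kidney and gonadal fat, with Hoxb9 in kidney at 0.43.

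Single libraries stood apart in their Hox genes as well. In the heart of control female 22, whose adipocyte markers were high, Hoxc10 was at 12.8 CPM, Hoxa10 at 6.38 CPM, Hoxa13 at 4.25 CPM and Hoxd8 at 19.1 CPM, while Hoxc10 was at 0 in the other 11 control hearts. These values lie within those of female gonadal fat for Hoxc10 and Hoxd8. The lung of control male 68 had no count of Hoxc10. The part of other tissue in these libraries was not tested.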

How the data were processed

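Whole tissues gave stranded total RNA libraries that were run on an Illumina sequencer, as the labels' protocols state. The submitters' processing notes name FastQC 0.11.5, Salmon and the build mm10. The authors deposited counts that are whole numbers. How they were rounded, on which annotation and with which strand option is not given in the sources used here. Before library sizes were formed, 9 features that each averaged 0.9% or more of counts were set aside.

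Labels supplied the groups, with a mouse as the unit of replication. Every comparison was fitted over all genes by the quasi-likelihood F-test of edgeR 4.0.16 under R 4.3.3, two-sided, after TMM scaling and filterByExpr, and with sex or treatment as a covariate. P-values were adjusted by the Benjamini-Hochberg method over the genes tested, at a threshold of 0.05. The test was checked on simulated data with differences placed only in genes above a minimum mean count. That check does not cover members with few counts. Alternatives were DESeq2 1.42.0, RLE scaling, no filter, all features kept, sex left out, doubtful libraries left out, each mouse left out and the mouse as a block. Each mouse gave every tissue, so the mouse numbers pair tissues. Deviations from group means over 5000 genes correlated at a median of 0.05 between gonadal and subscapular fat of a mouse (range -0.16 to 0.36, 22 mice). Exon lengths and positions are those of GENCODE vM21.

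Libraries were doubted when their own tissue's markers averaged more than 2 log2 units under the median of that tissue, or when under 1000 genes reached 10 counts. Members named with values are those called and at 1 CPM or more in a group, up to 6 per direction between tissues and 4 between sexes by size of change, and for treatment the 2 per direction with the smallest p. The members and lists were chosen with earlier results of these data known. Some genes of the lists are counted but not reported by name here. Floors of 3 counts cover counting error only.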

Additional observations from a re-analysis of the deposited data

Results flagged for a closer look

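Of 64 groups of 4 to 10 samples checked, 3 held a sample far from the rest. This is no more than the rate of about 1 in 20 that chance gives. Hoxb1 stood at 250.4 CPM in the skin of aPAPPA mouse 36, against 26.33 CPM in the next of 10 aPAPPA skins. That library is among those in doubt and held 16 Hox counts in all. Hoxd8 stood at 98.93 CPM in the subscapular fat of aPAPPA mouse 58, against 55.69 CPM in the next of 10. Hoxb8 stood at 20.92 CPM in the kidney of control female 22, against 11.41 CPM in the next of 6 control females. For 4 members the male minus female difference in gonadal fat differed from that in subscapular fat by the edgeR interaction term, at -6.206 for Hoxa10, -3.949 for Hoxa9, -1.863 for Hoxa5 and -1.199 for Hoxc5 on the log2 scale. Of these 4, Hoxa10 passed also with the mouse as a block. In subscapular fat Hoxa10 and Hoxa9 had counts only in muscle-rich libraries.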

How the results depend on the processing

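Of 421 values of single members under alternatives, 394 kept their direction and their side of the threshold, 26 fell short of it and 1 reversed, and of 148 counts of members called 121 stayed within 1.5 times. The reversed value is Hoxb1 in skin, aPAPPA minus control, at 0.917 by DESeq2, against -0.03 by edgeR. Without the low count filter more members were tested, and calls in either direction follow. Gonadal minus subscapular fat gave 6 of 35 in control mice, against 4091 of 35143 genes, and 4 of 35 in aPAPPA mice, against 5382 of 34055. Gonadal fat minus lung gave 21 of 35, against 10763 of 36034 genes, and minus bone marrow 26 of 35, against 19603 of 35693. Kidney minus lung gave 28 of 35, against 13761 of 36279 genes, and bone marrow minus spleen 8 of 31, against 14481 of 34952. DESeq2 gave 1 of 1 for marrow minus spleen, against 9491 of 13282 genes, and 2 of 5 for sex in subscapular fat, against 2436 of 11593. RLE scaling gave 2 of 5 for sex in subscapular fat, against 1858 of 11593 genes. Keeping all features gave 1 of 2 for marrow minus spleen, against 9453 of 13377 genes, and 2 of 9 for sex in subscapular fat, against 1878 of 12230.

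For gonadal minus subscapular fat in control mice, all 22 mice gave 4 members, leaving out 1 mouse at a time 1 to 3, female mice alone 1 and male mice alone 0. In aPAPPA mice male mice alone gave 1 of 6, against 2446 of 11543 genes. Without muscle-rich subscapular fat 1 of 16 was called in aPAPPA mice, against 1980 of 14322 genes. For sex, control mice alone gave 3 of 7 members in gonadal fat, against 790 of 11878 genes, and 4 of 17 in kidney, against 1599 of 11596. Fits of aPAPPA mice alone gave 1 of 8 in gonadal fat, against 11 of 12344 genes, and 2 of 15 in kidney, against 1322 of 10764. The interaction term kept 2 of 14 members without libraries in doubt, against 685 of 13682 genes. With the mouse as a replicate block 1 of 6 members was called for gonadal minus subscapular fat in aPAPPA mice, against 4042 of 11780 genes. For the interaction 1 of 12 was called, against 408 of 13283 genes, and the block moved no other count of calls by over 1.5 times. Fits on 1 sex or 1 arm and without muscle-rich fat were chosen after seeing the data. The causes were not tested. Members below about 1 CPM rest on a few counts per library, and a level of 0 in 1 library allows up to 3 counts.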
